A study of Mus musculus with 8 samples.

Results

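H3K27me3 peaks were examined at 6 genes of bone morphogenetic protein (BMP) signalling, the ligand genes Bmp4, Bmp7 and Bmp2, the inhibitory SMAD genes Smad6 and Smad7, and the zinc finger gene Zfp423. Each gene was represented by a fixed window in the coordinates of the deposited lists (mm9), and every peak that overlapped the window by at least 1 bp was counted. The 6 windows held 75 of the 208616 peaks in the 5 lists. They were chosen because of how these same lists behave at them, so presence, length and score of peaks are given as a description and were not tested. The windows were chr14:46998000-47016000 for Bmp4 (18 kb), chr2:172685000-172775000 for Bmp7 (90 kb), chr2:133370000-133395000 for Bmp2 (25 kb), chr9:63795000-63875000 for Smad6 (80 kb), chr18:75520000-75560000 for Smad7 (40 kb) and chr8:90180000-90490000 for Zfp423 (310 kb). No gene annotation of mm9 was used here, so the distance of a peak from an exon or a transcription start site is not given.

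H3K27me3 is the trimethylated form of a lysine of histone H3. It is placed by Polycomb repressive complex 2 (PRC2), is typically found at the CpG-rich promoters of developmental genes, and accompanies their silencing. In BMP signalling a secreted BMP dimer binds a pair of receptor kinases, which phosphorylate SMAD proteins that enter the nucleus with a common partner SMAD and act on target genes. The inhibitory SMADs interrupt this relay. Zfp423 is a transcription factor with many zinc fingers, of which one cluster binds SMADs. In the developing brain BMP signals favour astrocyte differentiation of neural progenitors.

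The mark was compared between 2 stages of gliomagenesis. AstroEGFR libraries (replicates 1 and 3, n = 2) came from C57BL/6 cortical astrocytes taken at postnatal day 5, which lacked p16/p19 (Ink4a/Arf) and carried a retrovirus for EGFRvIII, a constitutively active human EGF receptor. PT libraries (replicates 1, 3 and 4, n = 3) came from glioma propagating cells grown from tumours that C57BL/6 cells had formed in CD1 Nude mice. By the study's methods the transplanted cells were such astrocytes, so both groups share the p16/p19 deletion and the receptor. Both were cultured for under 10 passages, astrocytes in serum and glioma propagating cells in a serum-free medium with EGF and FGF2, so stage and culture medium cannot be told apart. Expression was not measured in these lists, and cell identity was therefore not checked against marker genes.

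The lists differed widely in size. AstroEGFR 3 held 3722 peaks that covered 0.132% of the chromosomes, whereas the other lists held 34021 to 66279 peaks and covered 1.49% to 3.32%. AstroEGFR 1, PT 1 and PT 4 each held at least 179 peaks on unplaced sequences and AstroEGFR 3 and PT 3 held 0, so values are also given within these sets of lists. Read depth is unknown. A window without a peak may still carry the mark below the cut-off of its list. The score of a peak is the authors' value, taken to be −10 times log10 of its p-value, and is given together with its percentile, the share of peaks in the same list that scored as high or lower.

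The reference sequence upstream of the gene start is shown for members with peaks in all PT lists and an entry in the RefSeq promoter table (3 of the 6 genes). CpG content is a property of such promoters that the choice of windows did not use. No member without peaks is shown, so CpG content cannot be related to marking here. Each sequence is the 250 bases before an annotated start, from GRCm38.p6 and not from the build of the lists, written 5′ to 3′ on the gene's strand, which is the minus strand in each case. Capitals mark CpG dinucleotides. The intervals are chr14:46390670-46390919 for Bmp4, chr8:87959596-87959845 for the outer start of Zfp423, chr8:87804440-87804689 for its inner start and chr9:64022060-64022309 for Smad6.
Bmp4: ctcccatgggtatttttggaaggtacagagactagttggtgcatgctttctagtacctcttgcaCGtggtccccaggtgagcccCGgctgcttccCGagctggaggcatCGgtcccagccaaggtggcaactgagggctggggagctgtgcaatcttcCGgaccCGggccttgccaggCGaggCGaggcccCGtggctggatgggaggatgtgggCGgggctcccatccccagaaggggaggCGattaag
Zfp423, outer start: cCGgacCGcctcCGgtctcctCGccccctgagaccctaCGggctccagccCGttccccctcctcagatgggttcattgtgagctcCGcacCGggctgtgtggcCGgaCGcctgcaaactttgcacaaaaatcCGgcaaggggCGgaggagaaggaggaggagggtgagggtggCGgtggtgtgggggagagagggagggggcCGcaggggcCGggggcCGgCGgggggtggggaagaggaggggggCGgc
Zfp423, inner start: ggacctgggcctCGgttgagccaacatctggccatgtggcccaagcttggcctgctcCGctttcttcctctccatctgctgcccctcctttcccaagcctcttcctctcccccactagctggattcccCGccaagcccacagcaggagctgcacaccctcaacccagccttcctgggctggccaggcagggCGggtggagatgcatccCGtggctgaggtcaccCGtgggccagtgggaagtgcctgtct
Smad6: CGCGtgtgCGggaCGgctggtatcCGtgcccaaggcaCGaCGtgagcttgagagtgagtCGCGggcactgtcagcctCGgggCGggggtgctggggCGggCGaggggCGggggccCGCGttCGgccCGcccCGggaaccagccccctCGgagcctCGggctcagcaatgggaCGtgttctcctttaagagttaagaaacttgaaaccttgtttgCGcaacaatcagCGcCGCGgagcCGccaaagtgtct

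The 3 genes differed in CpG content. The Smad6 sequence held 27 CpG, more than 91.4% of the 32841 promoters in the table, with an observed-to-expected CpG ratio of 0.984. The outer start of Zfp423 held 18 CpG (ratio 0.600) and Bmp4 held 11 (ratio 0.451), above 78.3% and 64.4% of promoters. The inner start of Zfp423 held 6 CpG, equal to the median of all promoters. Its ratio of 0.236 was below their median of 0.374, so CpG density was not shared by all starts of these genes. GC content was 63.2% for Bmp4, 71.6% and 64.8% for the outer and inner start of Zfp423 and 66.8% for Smad6, all above the median of 52.4%. Motifs were searched on both strands in the whole table entries, which add 50 bases after the start. The motif GTCTAGAC, a palindrome known to bind SMADs, occurred once in the Smad6 entry, across the start itself and so past the end of the printed sequence, and 0.213% of all entries held it. The motif GCACCC, known from the binding site of Zfp423, occurred once in Smad6 and in 15.7% of all entries. Both were missing from the other entries shown, and GGCGCC, another SMAD motif, was missing from all 4 and present in 11.9% of all entries. The motifs searched do not overlap each other. A match is a stretch of letters and no evidence of binding. The motifs were chosen with these sequences in view, so nothing is read from how rare a match is among all entries.

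Peaks in the gene windows were almost all from PT. Of the 75 peaks, 33 came from PT 1, 16 from PT 3, 25 from PT 4, 1 from AstroEGFR 1 and 0 from AstroEGFR 3. Most peaks of the whole lists were also from PT. Of all 208616 peaks, 64504 were from PT 1, 40090 from PT 3 and 66279 from PT 4. AstroEGFR 1 gave 34021 and AstroEGFR 3 gave 3722. The windows were chosen from these lists, so nothing is read from the larger PT part. Bmp4, Smad6 and Bmp7 (3 of 6) had peaks in all 3 PT and in neither AstroEGFR list. Zfp423 also had peaks in all PT lists (4 of 6 genes in all) but had the single AstroEGFR 1 peak as well. Smad7 and Bmp2 (2 of 6) had no peak in any list, and 0 of 6 had peaks in both AstroEGFR lists.

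**Figure D1:**
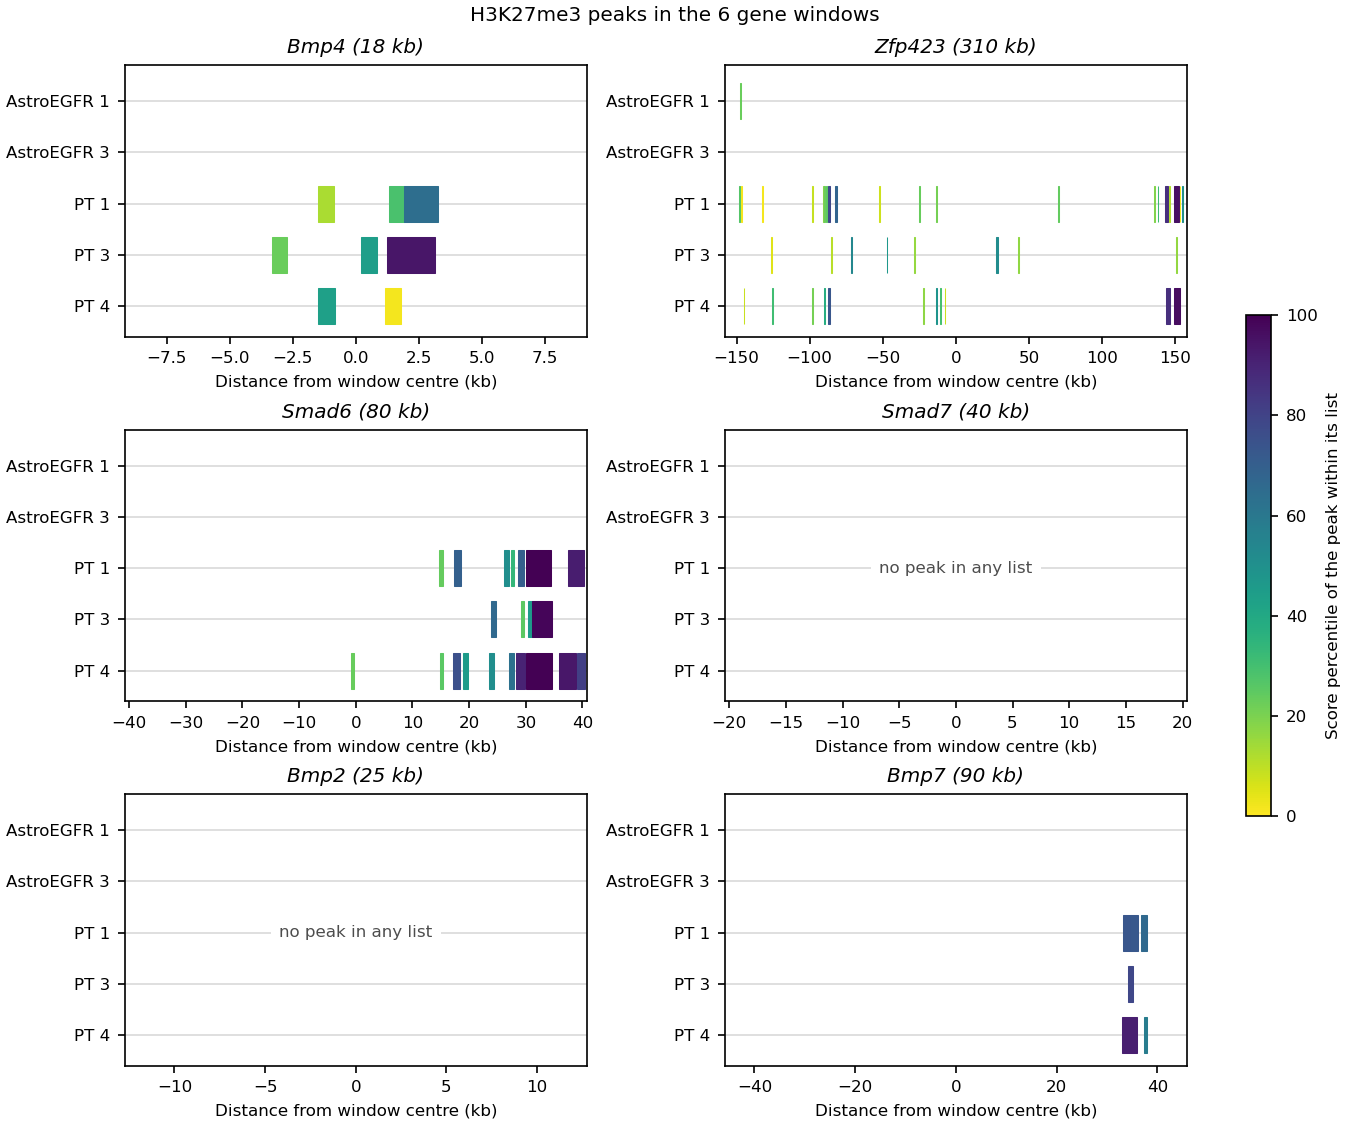
Position of H3K27me3 peaks in the 6 gene windows. Each panel is a window, the horizontal axis is the distance from its centre (kb), rows are the 5 libraries, and colour gives the percentile of the peak score within its own list. The 74 PT peaks fall in 4 windows, with the strongest toward the upper end of Zfp423, Smad6 and Bmp7, and Smad7 and Bmp2 are empty.

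These counts have to be read against windows of the same length, since a long window meets a peak more easily. When all chromosomes were divided into windows of each member's length, peaks in all 3 PT and in neither AstroEGFR list were found in 2.01% of windows of 18 kb (Bmp4), 4.11% of 80 kb (Smad6), 4.33% of 90 kb (Bmp7), 5.53% of 310 kb (Zfp423), 3.08% of 40 kb (Smad7) and 2.36% of 25 kb (Bmp2). Peaks in all PT lists, whatever the astrocytes showed, were found in 7.42% of windows of the length of Bmp4, 9.24% for Bmp2, 12.6% for Smad7, 19.7% for Smad6, 21.3% for Bmp7 and 42.3% for Zfp423. Because the genes were picked from the same lists, nothing is read from the excess of members over these shares. The absence of astrocyte peaks was the usual state of windows of these lengths. In the order Bmp4, Bmp2, Smad7, Smad6, Bmp7 and Zfp423, from the shortest window to the longest, AstroEGFR 1 had a peak in 9.93%, 11.8%, 15%, 21.9%, 23.3% and 43.1% of windows. AstroEGFR 3 had a peak in 1.93%, 2.51%, 3.61%, 6.19%, 6.8% and 17.3%, and both lists in 1.4%, 1.87%, 2.8%, 4.98%, 5.54% and 15.3%. In the same order, no list had a peak in 76.4%, 73.1%, 67.5%, 57.5%, 55.5% and 35.1% of windows. The empty windows of Bmp2 and Smad7 were thus also of the common kind among all windows. These windows were not limited to genes, and windows placed on genes were not compared.

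Bmp4 encodes a ligand known to drive astrocyte differentiation of neural progenitors. The cover of its window by peaks was 0 bp in AstroEGFR 1 and AstroEGFR 3, and 2571 bp (PT 1), 3113 bp (PT 3) and 1247 bp (PT 4) in the tumour lists. The groups did not overlap, as was the case at 4 of the 6 genes and in 3.39% of all windows of 18 kb (4.16% for the length of Bmp2 and 5.65% for that of Smad7), and the PT mean was 2310 ± 960 bp (SD, n = 3). The peaks of the PT lists overlapped only in part. A merged region at chr14:47008177-47010282 (2106 bp) held a peak in all 3 PT lists, although only 447 bp of it, from 47008329 to 47008775, lay in peaks of all of them.

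The PT lists differed in how strong that Bmp4 region was. Its best peak scored 532 in PT 3 (percentile 94.3), 209 in PT 1 (percentile 64.3) and 83.6 in PT 4 (percentile 1.56). PT 3 was thus far ahead of the others, and in PT 4 the peak was among the weakest of its list. The strongest Bmp4 peak of PT 4 lay further down, at chr14:47005516-47006163, with a score of 120 and at percentile 43.4, and overlapped a PT 1 peak that scored 87.1. Another pair of PT 3 peaks, at 47003671 to 47004279 and 47007218 to 47007838, had no counterpart in PT 1 or PT 4. The nearest AstroEGFR 1 peak was 203.6 kb from the window and the nearest AstroEGFR 3 peak 240.8 kb.

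Bmp7 encodes another BMP ligand. The cover was 4318 bp (PT 1), 1093 bp (PT 3) and 3523 bp (PT 4), against 0 bp in each AstroEGFR list, a PT mean of 2978 ± 1680 bp (SD, n = 3). Every PT list was above both astrocyte lists (9.26% of all windows of 90 kb were so arranged). All 6 PT peaks lay within 5 kb near the upper end of the window, and the remainder of its 90 kb held none. The shared region at chr2:172763066-172766141 had a best score of 792 in PT 4 (percentile 91.7), 284 in PT 1 (percentile 73.3) and 218 in PT 3 (percentile 78.7). Unlike at Bmp4, it stood above the middle of every PT list, and the single PT 3 peak lay wholly (100%) inside PT 4 peaks. The nearest astrocyte peaks were 246.6 kb (AstroEGFR 1) and 233.2 kb (AstroEGFR 3) from the window.

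Bmp2 encodes a ligand closely related to Bmp4. Its window held 0 peaks in each of the 5 lists, as did 73.1% of all windows of 25 kb. The nearest peak in any list was a PT 3 peak 2980 bp above the window with a score of 90.1. The next was a PT 4 peak 16.4 kb below it, and the nearest astrocyte peaks were 597.8 kb (AstroEGFR 1) and 598.2 kb (AstroEGFR 3) away. The ligand genes of the BMP2 and BMP4 pair therefore differed in all 3 PT lists, as described here without a test.

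Smad6 encodes an inhibitory SMAD that acts mainly on BMP receptors. Its window held the highest scores of the 6. The cover was 11578 bp (PT 1), 5676 bp (PT 3) and 15358 bp (PT 4), against 0 bp in each AstroEGFR list, a PT mean of 10871 ± 4880 bp (SD, n = 3). Each PT list was above both astrocyte lists, an arrangement found in 8.65% of windows of 80 kb. A core region at chr9:63865064-63869661 (4598 bp) had a score of 3100 in PT 1 and PT 4 (both at percentile 99.9) and 1272 in PT 3 (percentile 98.7). Many peaks tied at 3100. PT 1 held 1176 and PT 4 1082 peaks at 3100 or more, but only 0.102% and 0.0709% of these lists scored higher. The percentile counts tied peaks as equalled, so it does not rank the core among them or above that of PT 3. Of that core, 3387 bp from 63866072 to 63869458 were covered in all PT lists without a break.

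Around the core of Smad6 the PT lists diverged. A second shared region at chr9:63863340-63864906 scored 683 in PT 4, 253 in PT 1 and 90.1 in PT 3, at percentiles 90.2, 70.3 and 25.1. The region above the core, chr9:63870795-63875415, had scores of 942 in PT 1 and 1059 in PT 4 and no peak in PT 3. With peaks that overlapped the window and lay up to 5 kb apart grouped together, the stretch around the core was 25642 bp long for PT 4, 14191 bp for PT 1 and 10823 bp for PT 3. The marking went on past the window, with peaks of up to 912 in PT 1 and 746 in PT 4 within 10 kb above it. In both lists the next peak was within the grouping distance, so their covered lengths and stretch lengths are lower bounds. The nearest AstroEGFR 1 peak was 338.0 kb from the window, and the nearest AstroEGFR 3 peak 76.3 kb with a score of 120.

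Smad7 encodes the other inhibitory SMAD, which restrains signals of both the BMP and the TGF-β branch. It had 0 peaks in all 5 lists, as did 67.5% of windows of 40 kb. The nearest peaks were from PT 3, 6133 bp below the window with a score of 83.6 and 12.0 kb above it. In PT 1 the nearest was 25.9 kb away, in PT 4 302.8 kb, in AstroEGFR 1 306.9 kb and in AstroEGFR 3 345.4 kb. The paired inhibitory genes were thus opposite in the PT lists, Smad6 with the highest scores of the 6 windows and Smad7 with no peak.

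**Figure D2:**
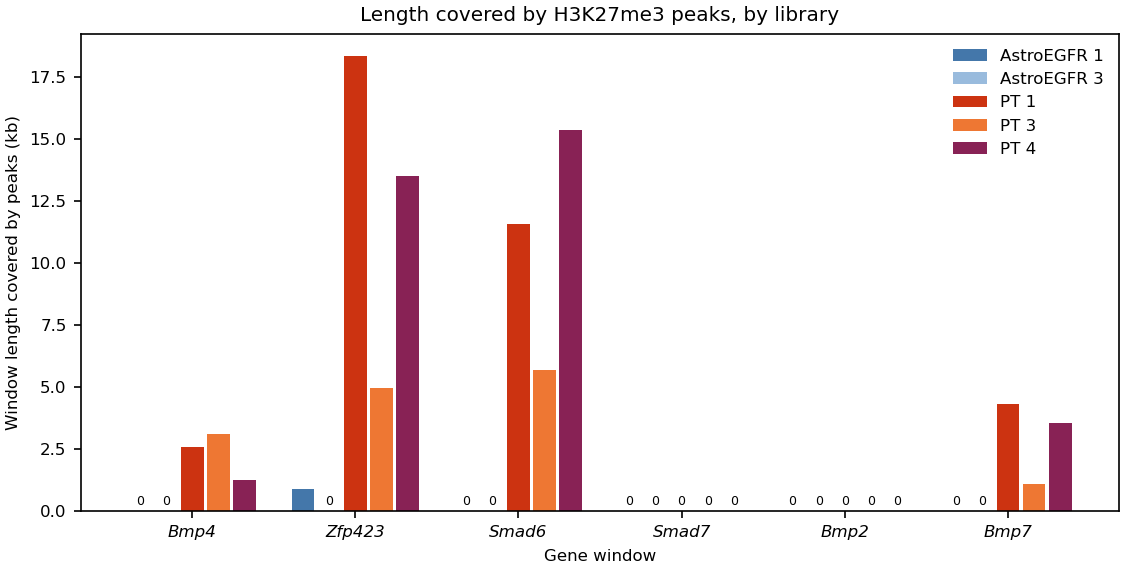
Length of each gene window covered by H3K27me3 peaks (kb), one bar per library, with 0 written where a list had no peak. Zfp423 reached 18327 bp in PT 1 and Smad6 15358 bp in PT 4, PT 3 had the shortest PT cover at Zfp423, Smad6 and Bmp7 but the longest at Bmp4, and the only astrocyte bar is AstroEGFR 1 at Zfp423 (878 bp).

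Zfp423 had the longest window and the most peaks, 20 in PT 1, 8 in PT 3, 11 in PT 4, 1 in AstroEGFR 1 and 0 in AstroEGFR 3. They covered 18327 bp, 4973 bp, 13514 bp, 878 bp and 0 bp, a mean of 12271 ± 6763 bp (SD, n = 3) in PT and 439 ± 621 bp (SD, n = 2) in AstroEGFR. Every PT list was above both astrocyte lists, as in 18% of windows of 310 kb. The AstroEGFR 1 peak, chr8:90187512-90188389, scored 88.4 (percentile 22.7 of its list). It lay at the lower end of the window and overlapped a PT 1 peak, 295.9 kb from the strongest PT 1 peak.

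The strongest marking of Zfp423 lay at the upper end of the window and had high scores in PT 1 and PT 4 but not in PT 3. At chr8:90484278-90488589 (4312 bp) the best peak scored 1689 in PT 1 (percentile 96.0) and 1788 in PT 4 (percentile 96.7). In PT 3 the same region held a single peak of 581 bp that scored 85.9 (percentile 16.3). This was the only one of 29 merged regions in the window with a peak in all 3 PT lists. A neighbouring region at chr8:90477933-90481725 scored 574 in PT 1 and 501 in PT 4 and had no peak in PT 3. Among peaks that overlapped the window, 7 PT 1 peaks up to 5 kb apart spanned 19578 bp at this end, and 2 PT 4 peaks spanned 9728 bp. The PT 4 span is a lower bound, since PT 4 had a further peak 626 bp above the window, within the grouping distance.

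A weaker group of Zfp423 peaks lay 235.3 kb below that region. The region at chr8:90247567-90249024 scored 355 in PT 1 and 262 in PT 4, at percentiles 78.4 and 73.3. In PT 1 it belonged to 5 peaks over 9832 bp, and PT 3 had a separate peak nearby with a score of 84.6. The other PT 3 peaks were scattered over the window. None scored above 115.5 (percentile 53.9), their widths ran from 580 to 759 bp, and 6 of the 8 overlapped no peak of another library.

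Merging all peaks of the 4 marked windows gave 44 regions. Of these, 5 (11.4%) had a peak in all 3 PT lists, and the same 5 had none in either AstroEGFR list, against 11.1% and 3.77% of all merged regions of the lists. Base pairs shared between PT lists differed by gene. At Zfp423, peaks of PT 1 and PT 4 had 8550 bp in common, 46.7% of the PT 1 cover and 63.3% of the PT 4 cover. PT 3 and PT 1 had 581 bp in common, 11.7% of the PT 3 cover and 3.17% of the PT 1 cover. At Smad6, by contrast, PT 1 peaks held 81.0% and PT 4 peaks 94.6% of the PT 3 cover, and at Bmp7 99.7% and 100%. At Bmp4 they held 57.4% and 17.1% of it. The PT 3 peaks therefore lay mostly where the other PT lists had peaks at Smad6 and Bmp7, and mostly elsewhere at Zfp423, in values that rest on 1 list.

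**Figure D3:**
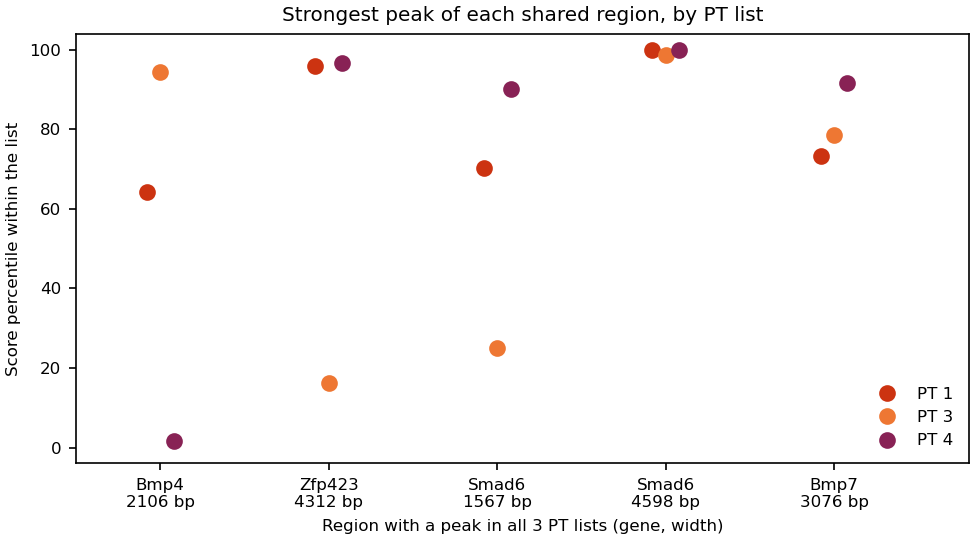
Percentile of the best peak score within its own list, for the 5 merged regions with a peak in all 3 PT lists, labelled by gene and width. The Smad6 region of 4598 bp lies at or above 98.7 in every list, whereas the Zfp423 region falls to 16.3 in PT 3 and the Bmp4 region to 1.56 in PT 4.

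To allow for list size, the covered share of each window was divided by the share of all chromosomes that the same list covered. The ratio was 4.35 in PT 1, 4.77 in PT 3 and 6.00 in PT 4 at Smad6, and 4.30, 11.6 and 2.17 at Bmp4. It was 1.78, 1.08 and 1.36 at Zfp423 and 1.44, 0.817 and 1.22 at Bmp7. Smad6 and Bmp4 were covered above the level of their list in every PT library, with a wide spread at Bmp4 (6.03 ± 4.97, SD, n = 3). Both windows have peaks in every PT list, and a single peak raises the ratio more in a short window. The ratio therefore depends on the choice of windows and on their length, and nothing further is read from it. The long windows of Zfp423 and Bmp7 were covered about as much as the chromosomes as a whole. At Zfp423 the ratio was 0.150 in AstroEGFR 1.

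Set beside all windows of the same length, the PT cover of Smad6 was equalled or exceeded by 7.39% (PT 1), 5.99% (PT 3) and 5.02% (PT 4) of windows. For Bmp4 these shares were 7.23%, 2.48% and 10.4%, for Bmp7 16.5%, 21.2% and 17.7%, and for Zfp423 17.4%, 22.7% and 20.7%. The lowest of these shares was that of Bmp4 in PT 3, and those of Zfp423 and Bmp7 ran from 16.5% to 22.7%. Many windows compared held no peak, whereas these genes have peaks in every PT list. In PT 1, PT 3 and PT 4, 31.1%, 28.4% and 32.3% of windows of the length of Smad6 held a peak. For Bmp4 it was 15.7%, 12.7% and 16.2%, for Bmp7 32.8%, 30.2% and 34.0%, and for Zfp423 53.3%, 51.2% and 55.1%. Among windows with a peak, the shares equalled or exceeded would be larger.

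**Figure D4:**
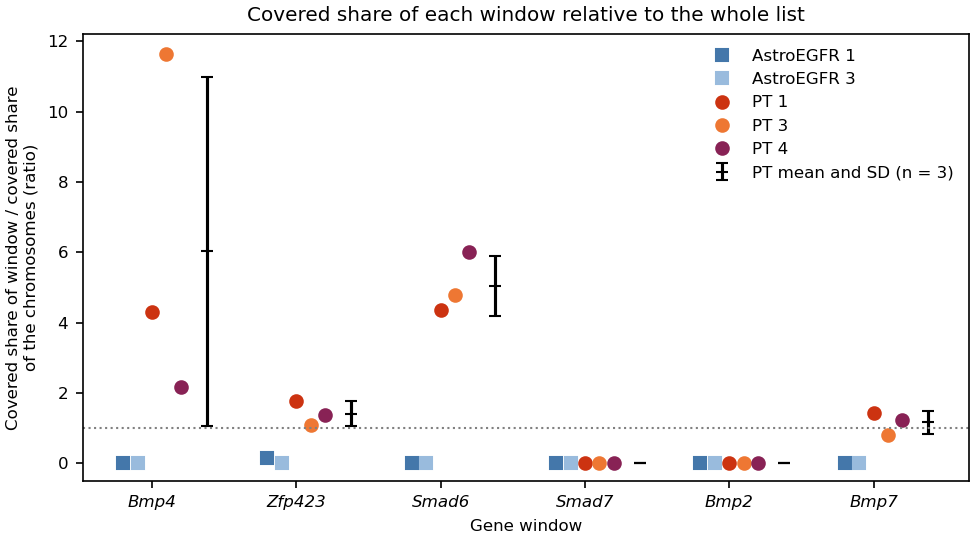
Covered share of each window divided by the share of the chromosomes that the same list covers (ratio, dotted line at 1), with a point per library and the PT mean ± SD (n = 3) in black. Smad6 lies at 4.35 to 6.00 in the PT lists and Bmp4 at 2.17 to 11.6, while Zfp423 and Bmp7 lie between 0.817 and 1.78.

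Within the sets of lists the direction was the same at the 4 marked genes. In the set with peaks on unplaced sequences, PT 1 and PT 4 exceeded AstroEGFR 1 by 2571 and 1247 bp at Bmp4, 4318 and 3523 bp at Bmp7, 11578 and 15358 bp at Smad6 and 17449 and 12636 bp at Zfp423. In the other set PT 3 exceeded AstroEGFR 3 by 3113, 1093, 5676 and 4973 bp. Each set has 1 AstroEGFR list, so these differences have no replicate check. The direction was fixed beforehand where the AstroEGFR list had 0 bp, because these genes have peaks in every PT list. Only Zfp423 in AstroEGFR 1 (878 bp) had any astrocyte cover. The AstroEGFR 3 list covered 0.132% of the chromosomes, against 1.49% for PT 3.

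List size was also limited by score. When PT 1 and PT 4 were cut to the covered length of AstroEGFR 1, by a choice made after seeing the data, their lists ended at scores of 307 and 241. Smad6 was then still marked in all PT lists and in neither astrocyte list, and its cover was 6991 bp (PT 1), 5676 bp (PT 3) and 11455 bp (PT 4). Zfp423 kept 7320 bp in PT 1 and 8299 bp in PT 4 against 878 bp in AstroEGFR 1, Bmp7 remained in PT 3 and PT 4, and Bmp4 in PT 3 only. When each list was cut to its 3722 peaks of highest score, the length of the AstroEGFR 3 list, Smad6 alone was marked in all 3 PT lists.

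Many member peaks were weak. Scores under 100 were given to 33 of the 75 peaks (44%), and scores above 500 to 12. The share of member peaks under 100 was 51.5% in PT 1, 43.8% in PT 3 and 32% in PT 4, and for the whole lists it was 29.9%, 42.3% and 29.5%. The peaks were 565 to 4527 bp wide, with a median of 672 bp. The window limits mattered at a few edges: 1 PT 1 peak crossed the upper limit of Zfp423, 1 PT 1 and 1 PT 4 peak crossed that of Smad6, and PT 4 had 2 further peaks of up to 198 within 10 kb outside Zfp423.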

How the data were processed

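Chromatin immunoprecipitation and sequencing of H3K27me3 gave 1 peak list for each of 5 libraries. The 3 input libraries had no list and were not analysed here. Per the labels, the authors used Bowtie 0.12.9 and MACS 1.4.1 with mm9. Peak names show that each deposited list was called separately, and its score column is taken to be −10 times log10 of the p-value. The number of reads, filters and the pairing with inputs are not given in the sources used here.

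The genes, windows and promoter features were chosen with earlier results of these data known. All 6 genes are named, and all other genes of the pathway, for which a list had been set, were not measured because no mm9 annotation was used here. Covered length is the number of window bases inside peaks. Group means are given with SD, and no test was made. With 2 against 3 libraries an exact permutation test could not give less than p = 0.1. By the study's text the AstroEGFR numbers name independent astrocyte batches, and primary tumours grew from such batches. The batch behind each PT library of these lists is not given in the sources used here. Background shares used all non-overlapping windows of each length up to the last peak of each chromosome, whether or not they held a gene. Motifs were chosen with the sequences in view. Promoter sequences and gene names came from RefSeq (GRCm38.p6). Python 3.11.15, pandas 2.3.3, numpy 2.4.6 and matplotlib 3.10.9 were used, and the window functions were tested on simulated lists.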

Additional observations from a re-analysis of the deposited data

How the results depend on the processing

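The number of genes with peaks in all 3 PT and in neither AstroEGFR list was 3, that with peaks in all PT lists 4, that with more cover in every PT list than in both AstroEGFR lists 4, and that with peaks in both AstroEGFR lists 0. With equal numbers of peaks per list the first 3 counts fell to 1 (Smad6), and with PT 1 and PT 4 cut by score to as many bp as AstroEGFR 1 covered, a setting added after seeing the data, the counts were 1, 2 and 2. Both settings keep fewer peaks of the longer lists. Without single replicates the counts ranged from 3 to 4, 4 to 4, 4 to 4 and 0 to 1, the last without AstroEGFR 3, when the single Zfp423 peak of AstroEGFR 1 sufficed. The first count was 4, Zfp423 included, without AstroEGFR 1, with scores of at least 100, with at least 1000 bp covered and with windows shortened by 10% on each side. Shortening removed the AstroEGFR 1 peak of Zfp423 but also chr8:90484278-90488589, its only region with peaks in all PT lists. With scores of at least 100, PT 3 lost its peak in that region (85.9). Its remaining Zfp423 peaks overlapped no PT 1 or PT 4 peak. With only the higher-scoring 50% of peaks all of the first 3 counts were 3, made up of Zfp423, Smad6 and Bmp7, and Bmp4 was lost. In that setting too, the Zfp423 peaks of PT 3 overlapped no PT 1 or PT 4 peak, so no Zfp423 region was shared by all PT lists. Leaving out 1 library, the PT minus AstroEGFR difference ranged from 1909 to 2842 bp at Bmp4, 8805 to 15482 bp at Zfp423, 8627 to 13468 bp at Smad6 and 2308 to 3921 bp at Bmp7. No difference in covered length changed sign, and with equal numbers of peaks that of Bmp7 was 0 bp. At Bmp4, Smad6 and Bmp7 both AstroEGFR lists had 0 bp of cover. Settings that only remove peaks or libraries could therefore not reverse the sign there, and the unchanged sign is no sign of stability. With windows extended by 10 kb, Smad7 and Bmp2 had mean PT cover of 200 and 201 bp, from PT 3 alone. With libraries 1 and 3 paired by number (replicate block), the counts were 3, 4, 4 and 0 and the Zfp423 difference 11211 bp, by construction those without PT 4. The study describes tumours grown from its numbered astrocyte batches, but neither it nor the labels tie the number of a PT library to a batch. The depth of each list is unknown, which limits each statement that rests on a missing peak, most of all in AstroEGFR 3.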
